A study of Mus musculus with 3 samples.

Results

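The metalloproteases of the ADAM and ADAMTS families were read in mouse hepatic stellate cells (HSCs), which store vitamin A in the healthy liver and turn into matrix-producing myofibroblasts in fibrosis. Members were taken by gene symbol, as *Adam*, *Adamts* or *Adamtsl* followed by a number and at most 1 letter. Of 30595 symbols that occur once in each of the 2 deposited tables, 56 are members: 32 membrane ADAM genes, 19 ADAMTS genes and 5 ADAMTS-like genes. A further symbol, *Adam24*, stands only in the FGF18 table, where its mean is 0 TPM without a factor and 0.0671 TPM after FGF18, and is not counted.

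The HSCs came from livers of female mice of the C57BL/6 strain, wild-type and more than 24 weeks of age, and were enriched on a Nycodenz density gradient, so the preparation still holds other liver cells. All cells spent 24 h in DMEM with 0.2% FBS. They were then kept for 24 h without a factor (untreated), with 100 ng/mL recombinant human FGF18, a fibroblast growth factor, or with 1 ng/mL TGFβ1, the main profibrotic cytokine of the liver. Each group is given as 1 mean level per gene in TPM, a relative transcript abundance that corrects for gene length and for the total of the library. No values per library were at hand, and the authors' own fold changes and test columns were set aside, so no SD, test or replicate check is given for any value, and the depth behind the values is unknown. Genes are therefore called higher or lower by ratio only: 2-fold on the log2(TPM + 1) scale, in genes with at least 1 TPM in either group, beside the share of all genes that pass the same limit. In bulk cells, fewer cells of a type and less RNA per cell cannot be told apart.

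ADAMs are membrane-anchored proteins with a metalloprotease and a disintegrin domain. The active ones cut the outer part of other membrane proteins, a step called ectodomain shedding, which releases growth factors and cytokines and starts Notch signalling. Members expressed in testis serve sperm, and several ADAMs have lost the catalytic site. ADAMTS enzymes are secreted, carry thrombospondin repeats that hold them in the matrix, and cut proteoglycans, procollagens or von Willebrand factor. ADAMTS-like proteins share the repeats but have no protease domain, and several bind the fibrillin microfibrils that store latent TGFβ.

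Promoters are shown for 4 members whose levels differed at least 2-fold from untreated cells with a stimulus and that the promoter table held: *Adamtsl2*, *Adamts13*, *Adamts1* and *Adamts14*. Each is 300 bases around the start site from RefSeq on GRCm38.p6, read 5′ to 3′ on the strand of the gene. Capitals mark the SMAD-binding element CAGAC and the TATA box TATAAA, each on either strand. SMAD proteins carry the TGFβ signal to DNA.
*Adamtsl2* promoter (chr2:27079129-27079428, plus strand): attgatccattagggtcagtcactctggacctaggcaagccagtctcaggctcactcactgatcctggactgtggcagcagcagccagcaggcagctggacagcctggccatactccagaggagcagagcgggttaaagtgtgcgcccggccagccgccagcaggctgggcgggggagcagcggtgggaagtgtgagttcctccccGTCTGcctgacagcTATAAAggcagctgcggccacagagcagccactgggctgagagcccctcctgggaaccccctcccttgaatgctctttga
*Adamts13* promoter (chr2:26973166-26973465, plus strand): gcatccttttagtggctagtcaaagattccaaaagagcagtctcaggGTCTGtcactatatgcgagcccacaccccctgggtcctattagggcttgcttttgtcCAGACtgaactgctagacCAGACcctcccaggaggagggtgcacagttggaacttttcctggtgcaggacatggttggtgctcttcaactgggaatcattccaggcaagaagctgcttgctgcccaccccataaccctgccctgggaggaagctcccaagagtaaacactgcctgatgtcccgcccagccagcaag
*Adamts1* promoter (chr16:85803064-85803363, minus strand): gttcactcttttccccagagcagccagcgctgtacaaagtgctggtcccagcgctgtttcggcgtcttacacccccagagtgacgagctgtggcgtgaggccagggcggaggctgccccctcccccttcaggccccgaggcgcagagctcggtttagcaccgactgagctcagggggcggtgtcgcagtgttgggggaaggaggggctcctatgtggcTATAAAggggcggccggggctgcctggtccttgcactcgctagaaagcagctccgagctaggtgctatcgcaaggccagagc
*Adamts14* promoter (chr10:61273370-61273669, minus strand): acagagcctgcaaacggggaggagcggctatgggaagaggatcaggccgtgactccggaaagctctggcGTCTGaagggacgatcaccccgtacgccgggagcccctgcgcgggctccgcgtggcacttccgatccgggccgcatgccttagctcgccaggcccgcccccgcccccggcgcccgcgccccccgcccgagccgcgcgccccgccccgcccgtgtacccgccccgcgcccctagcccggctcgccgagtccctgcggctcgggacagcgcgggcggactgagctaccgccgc
CAGAC stands once in the *Adamtsl2* window, 3 times in that of *Adamts13*, once in that of *Adamts14* and in no copy in that of *Adamts1*. It is found in 49.6% of 32851 mouse promoters of this length, so a match is common. TATAAA, searched after the sequences had been read, occurs in the *Adamtsl2* and *Adamts1* windows and in 13.6% of all promoters. An AP-1 motif, TGANTCA on either strand, is in none of the 4 windows and in 7.81% of all promoters. Of the 43 members that reach 1 TPM, 25 have a promoter in the table, of which 12 hold CAGAC, 2 the AP-1 motif and 3 TATAAA. A match is a run of letters and no measure of binding.

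Of the 56 members, 42 reached 1 TPM in untreated cells, 40 with FGF18 and 40 with TGFβ1, and 43 did so in at least 1 group. At least 10 TPM was reached by 13 members in untreated cells, 12 with FGF18 and 16 with TGFβ1. Of the 32 membrane ADAM genes, 20, 19 and 18 reached 1 TPM and 5, 6 and 9 reached 10 TPM, in the order untreated, FGF18 and TGFβ1. Of the 19 ADAMTS genes, 17, 16 and 17 reached 1 TPM and 5, 4 and 4 reached 10 TPM in the same order. All 5 ADAMTS-like genes reached 1 TPM in each group, and 3, 2 and 3 of them reached 10 TPM. The 13 members that stayed under 1 TPM in every group lay at or below 0.905 TPM, the level of *Adamts19* with TGFβ1. Of these, 11 are membrane ADAM genes and the other two are *Adamts19* and *Adamts8*.

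**Figure D1:**
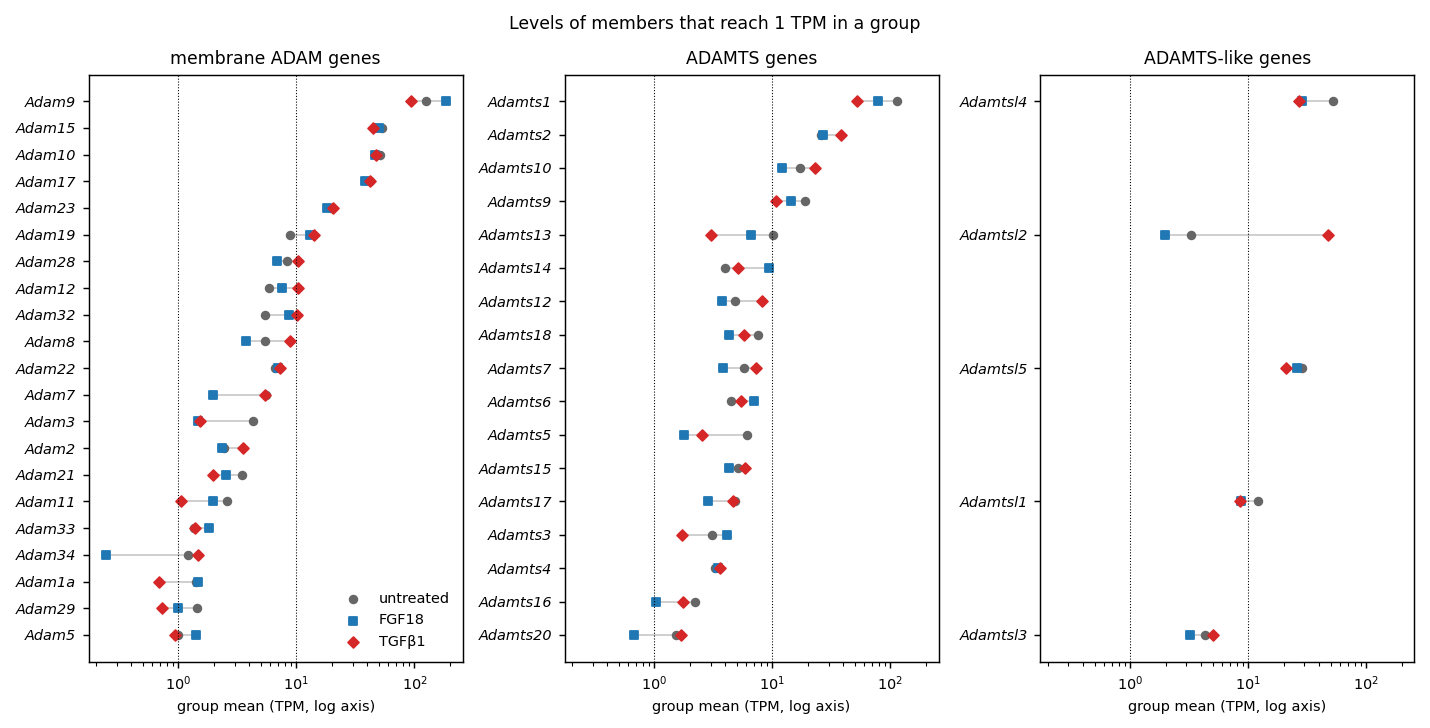
Authors' mean level of each of the 43 members that reach 1 TPM in a group, on a log axis in TPM, for untreated cells (grey circles), FGF18 (blue squares) and TGFβ1 (red diamonds), with dotted lines at 1 and 10 TPM. *Adam9* and *Adamts1* stand at the top of their families, and *Adamtsl2* is the gene whose 3 values lie furthest apart on the log axis, from 1.98 TPM with FGF18 to 47.4 TPM with TGFβ1.

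The summed level of all members was 700.6 TPM in untreated cells, 653.9 TPM with FGF18 and 621.5 TPM with TGFβ1. Membrane ADAM genes took the larger part of it, 51.3% in untreated cells, 61.2% with FGF18 and 53.2% with TGFβ1. ADAMTS genes took 34.3%, 28.3% and 29.3%, and ADAMTS-like genes 14.4%, 10.4% and 17.6%, in the same order. With either stimulus the total was thus within 1.13-fold of the untreated one, while its division among the 3 families was not the same in each group.

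**Figure D2:**
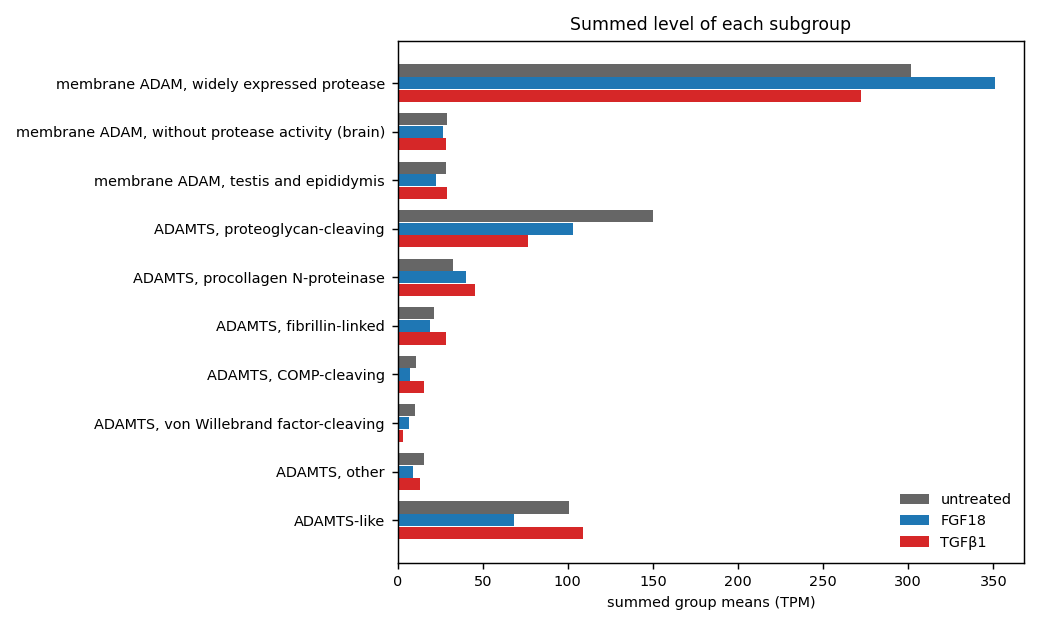
Summed group means in TPM of 10 functional subgroups of the members, as bars from 0 for untreated cells (grey), FGF18 (blue) and TGFβ1 (red). The widely expressed ADAM proteases sum to 302, 351 and 272 TPM, and the proteoglycan-cleaving ADAMTS genes to 149.9, 102.9 and 76.6 TPM.

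Among the membrane ADAMs, *Adam9*, which encodes a protease also known as meltrin γ, had the highest level in every group. It stood at 125 TPM in untreated cells, 184 TPM with FGF18 and 94.4 TPM with TGFβ1. The level with FGF18 was 1.47-fold that of untreated cells and 1.95-fold that with TGFβ1, both short of 2-fold. *Adam10*, the main sheddase of Notch receptors, was at 51.1, 46.2 and 46.8 TPM in the order untreated, FGF18 and TGFβ1. *Adam17*, which releases TNF and ligands of the EGF receptor, was at 42.3, 37.9 and 41.7 TPM. For both sheddases the log2 ratios to untreated cells were small, between −0.15 and −0.02. *Adam15*, whose disintegrin domain binds integrins, lay close by at 52.8, 49.7 and 44.6 TPM.

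*Adam12* and *Adam19*, the genes of meltrin α and meltrin β, were higher with both stimuli, although by less than 2-fold. *Adam12* was at 5.82 TPM in untreated cells, 7.57 TPM with FGF18 and 10.3 TPM with TGFβ1, which is 1.77-fold the untreated level. *Adam19* was at 8.86, 13.0 and 14.0 TPM, or 1.47-fold with FGF18 and 1.58-fold with TGFβ1. *Adam8*, a protease best known from leukocytes, went in opposite directions, from 5.42 TPM to 3.76 TPM with FGF18 and 8.75 TPM with TGFβ1. Its log2 ratio of FGF18 to TGFβ1 was −1.04, past the limit, while neither ratio to untreated cells was. *Ptprc*, which encodes the pan-leukocyte antigen CD45, was at 13.0, 8.32 and 13.4 TPM. Of 5 macrophage markers above the floor with FGF18, *Ptprc* was the 1 below untreated cells, and 4 were above. *Cd68*, another of them, was at 52.1, 85.0 and 43.0 TPM, the other way to *Adam8* with both stimuli. The part of leukocytes in the *Adam8* values was not tested. *Adam28*, a protease described in lymphocytes, was at 8.38, 6.85 and 10.4 TPM. *Adam33* was near the floor at 1.36, 1.82 and 1.37 TPM.

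*Adam11*, *Adam22* and *Adam23*, whose products lack protease activity and in brain bind the secreted protein LGI1, were all measured. *Adam23* was at 19.8, 18.02 and 20.3 TPM in untreated, FGF18 and TGFβ1 cells. *Adam22* was at 6.56, 6.96 and 7.31 TPM. These levels differed little between groups, while *Adam11* was lower with TGFβ1, at 2.60, 1.97 and 1.06 TPM (log2 ratio −0.81).

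Of 20 ADAM genes known for expression in testis or epididymis, 9 reached 1 TPM in a group and 1 reached 10 TPM. The latter, *Adam32*, was at 5.42 TPM in untreated cells, 8.60 TPM with FGF18 and 10.0 TPM with TGFβ1. *Adam3*, which lies near it on chromosome 8 and in mouse sperm is needed for migration into the oviduct, went the other way, at 4.32, 1.47 and 1.52 TPM. *Adam3* was 2.95-fold lower with FGF18 and 2.85-fold lower with TGFβ1, past the limit in both (log2 ratios −1.11 and −1.08). *Adam7*, a gene of the epididymis, was at 5.48 TPM in untreated cells, 1.95 TPM with FGF18 and 5.42 TPM with TGFβ1. It was past the limit with FGF18 only, and its log2 ratio of FGF18 to TGFβ1 was −1.12. *Adam2*, the gene of fertilin β, was at 2.41, 2.34 and 3.54 TPM. *Adam21* was at 3.43, 2.52 and 1.96 TPM. The remaining 4 of these genes, *Adam34*, *Adam1a*, *Adam29* and *Adam5*, stayed at or below 1.48 TPM in every group, and *Adam34* was at 0.242 TPM with FGF18.

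These low levels come with limits from the gene models. *Adam18*, *Adam3*, *Adam5*, *Adam32* and *Adam9* lie next to each other on the minus strand of chromosome 8 (GENCODE M21, GRCm38), with gaps of 2.469, 1.24, 11.77 and 0.806 kb between them. *Adam32* and *Adam9* are thus only 806 bases apart, and *Adam9* is by far the more abundant. *Adam1a* overlaps other genes, among them *Mapkapk5*, a kinase gene on the same strand with 33.5 TPM in untreated cells. *Adam1a* also shares 14.8% of its 31-base words with another member. *Adam34* shares 14.6% of its words with another member, and each other member that reaches 1 TPM shares at most 0.329%. Among the 13 members under 1 TPM, *Adam26a* shares 39.9% of its words with *Adam26b*.

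Among the ADAMTS genes, the 7 that cleave proteoglycans were lower in sum with both stimuli. They summed to 149.9 TPM in untreated cells, 102.9 TPM with FGF18 and 76.6 TPM with TGFβ1, which is 1.46-fold and 1.96-fold lower. Most of that sum is *Adamts1*, a protease of versican and aggrecan, at 114.6, 78.0 and 51.9 TPM. *Adamts1* was 2.21-fold lower with TGFβ1 (log2 ratio −1.13) and 1.47-fold lower with FGF18. Of 10215 genes with at least 10 TPM in untreated or TGFβ1 cells, 215 including *Adamts1* were as far down.

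*Adamts5*, which encodes the main aggrecanase of mouse cartilage, was low in both stimulated groups. It was at 6.08 TPM in untreated cells, 1.79 TPM with FGF18 and 2.52 TPM with TGFβ1. It was the only ADAMTS gene past the limit with both stimuli, 3.39-fold lower with FGF18 and 2.42-fold lower with TGFβ1. *Adamts1* and *Adamts5* lie side by side on the minus strand of chromosome 16, at 85793827-85803113 and 85856173-85901828, with 53.1 kb between them. *Adamts9*, a versicanase related to GON-1 of *Caenorhabditis elegans*, was at 19.1, 14.5 and 10.7 TPM, or 1.78-fold lower with TGFβ1. *Adamts15* was at 5.11, 4.33 and 5.90 TPM. *Adamts4*, the gene of another aggrecanase, was at 3.29, 3.45 and 3.61 TPM. *Adamts20* was at 1.54, 0.680 and 1.69 TPM, and *Adamts8* stayed at or below 0.241 TPM.

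The 3 procollagen N-proteinases, which remove the amino-terminal propeptide of fibrillar procollagens, were higher in sum with both stimuli, at 32.7, 40.3 and 45.3 TPM. Different members made up that difference in the 2 cases. *Adamts14* was at 3.98 TPM in untreated cells, 9.44 TPM with FGF18 and 5.09 TPM with TGFβ1. It was the only member past the limit upwards with FGF18, 2.37-fold higher (log2 ratio 1.07), and 1.28-fold higher with TGFβ1. *Adamts2*, the most abundant of the 3, was at 25.7, 26.7 and 38.5 TPM, close to the untreated level with FGF18 and 1.50-fold higher with TGFβ1. *Adamts3*, which also activates the lymphatic growth factor VEGF-C, was at 3.06, 4.10 and 1.71 TPM, so it was lower with TGFβ1 where *Adamts2* was higher.

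*Adamts13* encodes the protease of von Willebrand factor, and stellate cells are its main source in the liver. It was at 10.1 TPM in untreated cells, 6.64 TPM with FGF18 and 3.00 TPM with TGFβ1. Of the members, it had the lowest ratio with TGFβ1, 3.37-fold below untreated cells (log2 ratio −1.48), and it was 1.53-fold lower with FGF18. Of the 22683 genes above the floor with TGFβ1, 446 including *Adamts13* were as far down. Its substrate gene *Vwf*, a product of endothelial cells, was at 13.0, 9.99 and 12.4 TPM.

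The other ADAMTS genes stayed within 2-fold of untreated cells on the log2(TPM + 1) scale, or below 1 TPM. *Adamts10*, which binds fibrillin, was at 17.2, 12.1 and 23.0 TPM, lower with FGF18 and higher with TGFβ1. Its relative *Adamts6* was at 4.47, 7.02 and 5.39 TPM, or 1.57-fold higher with FGF18. The 2 genes whose products cleave COMP, a cartilage matrix protein, summed to 10.6, 7.57 and 15.5 TPM, and the sum with FGF18 was 2.05-fold below that with TGFβ1. Of these, *Adamts12* was at 4.87, 3.75 and 8.22 TPM. *Adamts7* was at 5.78, 3.83 and 7.31 TPM, and overlaps *Tbc1d2b* on the opposite strand. *Adamts18* was at 7.61, 4.30 and 5.79 TPM. *Adamts17* was at 4.79, 2.85 and 4.63 TPM. *Adamts16* was at 2.21, 1.04 and 1.76 TPM, so all 3 were lowest with FGF18.

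The ADAMTS-like genes held the member furthest from its untreated level in ratio. *Adamtsl2* encodes a microfibril-associated protein that binds fibrillin-1 and the latent TGFβ binding protein LTBP1, and is mutated in human geleophysic dysplasia. It was at 3.28 TPM in untreated cells, 1.98 TPM with FGF18 and 47.4 TPM with TGFβ1. The level with TGFβ1 was 14.4-fold that of untreated cells (log2 ratio 3.50) and 23.9-fold that with FGF18. Of 22683 genes above the floor in untreated or TGFβ1 cells, 7 including *Adamtsl2* were as far up. With FGF18 it was below the untreated level by less than 2-fold (log2 ratio −0.52).

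*Adamtsl4*, whose product binds fibrillin-1 and is mutated in human ectopia lentis, had the highest level of the ADAMTS-like genes in untreated cells. It was at 52.6 TPM there, 28.5 TPM with FGF18 and 27.1 TPM with TGFβ1, which is 1.85-fold and 1.94-fold lower, short of the limit on the log2(TPM + 1) scale. *Adamtsl5* was at 28.6, 25.9 and 21.1 TPM. *Adamtsl1*, the gene of punctin, was at 12.1, 8.73 and 8.51 TPM, and overlaps *Sh3gl2* on the same strand. *Adamtsl3* was at 4.29, 3.24 and 5.02 TPM. All 5 ADAMTS-like genes were thus below untreated cells with FGF18, with a median log2 ratio of −0.43, beside −0.13 over all genes.

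**Figure D3:**
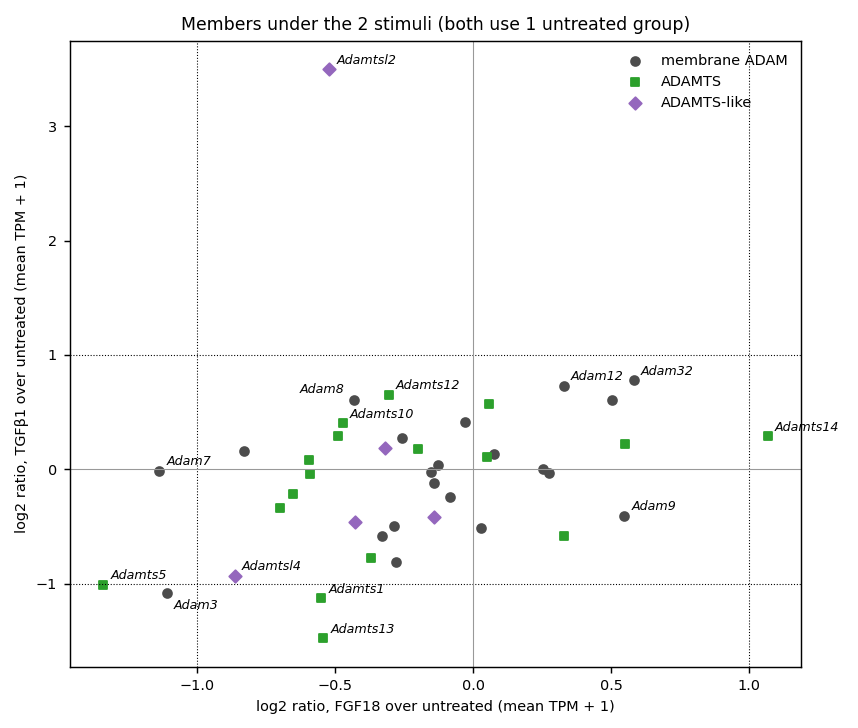
Log2 ratio of group means, 1 TPM added to each, FGF18 over untreated on the x axis and TGFβ1 over untreated on the y axis, for the 43 members that reach 1 TPM in a group, by family, with dotted lines at 2-fold. Both axes divide by the same untreated group. *Adamtsl2* stands alone at the top at 3.50, *Adamts14* lies past 1 on the x axis, and *Adamts5* and *Adam3* lie past −1 on both.

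With FGF18, 1 of the 43 members above the floor was at least 2-fold higher (*Adamts14*), beside 2.67% of 22193 genes, and 3 were at least 2-fold lower (*Adamts5*, *Adam7*, *Adam3*), beside 6.7%. These counts are near the background shares. Of the 43, 30 were below their untreated level, and the median log2 ratio was −0.28, beside −0.13 over all genes. The medians by family were −0.47 for 17 ADAMTS genes, −0.43 for 5 ADAMTS-like genes and −0.13 for 21 membrane ADAM genes.

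With TGFβ1, 1 of 42 members above the floor was at least 2-fold higher (*Adamtsl2*), beside 4.54% of 22683 genes, and 4 were at least 2-fold lower (*Adamts13*, *Adamts1*, *Adam3*, *Adamts5*), beside 5.14%. The first count is below and the second above the background share, each by few genes. Above and below their untreated level stood 21 members each, and the median log2 ratio was −0.0039, beside −0.0054 over all genes. The 3 genes lower among 17 ADAMTS genes contrast in count with 9 of the 17 that were above untreated cells, so members of the family lay on both sides of their untreated level.

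Between the stimuli, none of 42 members was at least 2-fold higher with FGF18 than with TGFβ1, beside 2.83% of 22005 genes, and 3 were at least 2-fold lower (*Adamtsl2*, *Adam7*, *Adam8*), beside 5.78%. The median log2 ratio of the 42 was −0.12, beside −0.14 over all genes. The 2 levels come from separate tables, whose untreated values are equal for all 30595 shared symbols. Ratios of weakly expressed genes scatter more: with TGFβ1, 13.3% of genes at 1 to 10 TPM were 2-fold apart in either direction, against 5.49% at 10 to 100 TPM and 4.21% above. *Adamtsl2*, *Adamts1* and *Adamts13* are the members past the limit in a comparison with untreated cells that have a mean of at least 10 TPM.

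*Adamts13* and *Adamtsl2*, which have the lowest and the highest ratio with TGFβ1 among the members, are neighbours on the plus strand of chromosome 2, at 26973416-27009628 and 27079379-27108981 (GRCm38). Their ends are 69.75 kb apart, with *Cacfd1*, *Slc2a6* and *Mymk* between them. *Cacfd1*, which encodes a calcium channel flower domain protein, was at 29.0, 29.2 and 33.8 TPM in untreated, FGF18 and TGFβ1 cells. *Slc2a6*, a sugar transporter gene, was at 2.49, 1.42 and 1.62 TPM, and *Mymk*, a muscle fusion gene, stayed below 1 TPM. Neither of the first 2 was past 2-fold with a stimulus. Beyond *Adamtsl2*, *Dbh*, the gene of dopamine beta-hydroxylase, was at 0.180, 0.117 and 2.85 TPM, and *Sardh*, the gene of mitochondrial sarcosine dehydrogenase, at 10.7, 11.9 and 22.7 TPM. Both were past 2-fold upwards with TGFβ1, and *Rexo4*, on the other side of *Adamts13*, was not, at 61.7, 52.7 and 43.2 TPM. These neighbours were named after their values were seen.

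**Figure D4:**
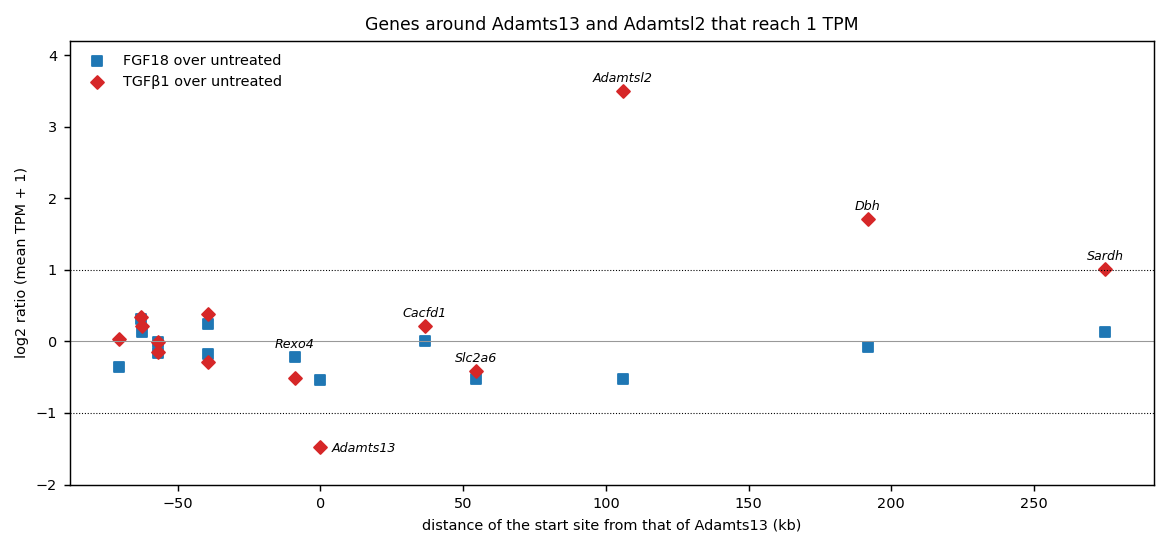
Log2 ratio of group means, 1 TPM added to each, for genes around *Adamts13* and *Adamtsl2* that reach 1 TPM, against the distance of their start site from that of *Adamts13* in kb, with FGF18 in blue squares and TGFβ1 in red diamonds. With TGFβ1, *Adamts13* lies at −1.48 and *Adamtsl2* at 3.50, while *Cacfd1* between them lies at 0.21; unlabelled points are genes upstream of *Rexo4*.

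The inhibitors of these proteases were read from a list of 7 genes. *Timp3*, whose product inhibits ADAM17 and several ADAMTS enzymes, was at 509 TPM in untreated cells, 456 TPM with FGF18 and 188 TPM with TGFβ1 (log2 ratio −1.44). *Timp1*, whose product inhibits ADAM10, was at 31.7, 59.5 and 260 TPM, with a log2 ratio of 3.00 with TGFβ1. The other inhibitor past the limit was *A2m*, a low-level gene that was higher with FGF18. Of 15 activators and partners of membrane ADAMs above the floor, such as proprotein convertases, tetraspanins and iRhoms, none was past the limit with FGF18. With TGFβ1, 1 was higher, the convertase gene *Pcsk5*, at 2.48, 2.17 and 10.7 TPM. Of all genes, 2.67% were higher and 6.7% lower with FGF18, and 4.54% higher and 5.14% lower with TGFβ1. In lists of 7 and 15 genes, 1 gene in a direction is too few to set apart from these shares.

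Of the membrane proteins shed by ADAMs, 1 of 35 was at least 2-fold lower with FGF18, the Notch ligand gene *Dll1*, and none was higher. With TGFβ1, 2 of 37 were higher, the receptor gene *Pdgfrb* and the syndecan gene *Sdc1*, with log2 ratios of 1.05 and 1.03, and 1 was lower, the endothelial cadherin gene *Cdh5*. These counts are near or below what the background shares of 2.67%, 6.7%, 4.54% and 5.14% would give.

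Substrate genes of the ADAMTS enzymes are set beside the same background, 2.67% of all genes higher and 6.7% lower with FGF18, and 4.54% higher and 5.14% lower with TGFβ1. Of the listed proteoglycan, link protein and matrilin genes, 3 of 11 were at least 2-fold lower with FGF18. They were *Lum*, *Dcn* and *Fmod*, the genes of lumican, decorin and fibromodulin, with log2 ratios of −1.83, −1.40 and −1.24. *Fmod* was a low-level gene, at 2.17, 0.337 and 0.138 TPM. *Vcan*, the gene of versican, was at 23.4, 17.6 and 22.2 TPM, within 2-fold with both stimuli. With TGFβ1, 2 of 12 were at least 2-fold lower, *Lum* and *Fmod* again, with log2 ratios of −1.45 and −1.48, and 1 was higher. The latter, *Bgn*, the gene of biglycan, was at 573, 608 and 1853 TPM. Of procollagen genes and their processing partners, 5 of 11 were at least 2-fold higher with TGFβ1. The 4 furthest up were *Col1a1*, *Bmp1*, *Col1a2* and *Col3a1*, with log2 ratios of 2.84, 2.07, 1.99 and 1.89. With FGF18, 1 of 12 was at least 2-fold lower, *Col3a1*, with a log2 ratio of −1.84. *Bmp1*, which encodes the procollagen C-proteinase, was at 9.62, 16.2 and 43.7 TPM, a larger ratio with TGFβ1 than that of any N-proteinase gene. Of 7 other ADAMTS substrate genes above the floor, none was past the limit with FGF18, and 2 were higher with TGFβ1, the protease inhibitor gene *Tfpi2* and the endocytic receptor gene *Lrp1*, with log2 ratios of 1.70 and 1.05.

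Of 17 microfibril genes, the partners of the ADAMTS-like proteins, 7 were at least 2-fold higher with TGFβ1 and 1 lower. The shares over all genes were 4.54% and 5.14%. The median log2 ratio of the 17 was 0.84, beside −0.0054 over all genes. The largest ratios were those of *Lox*, the gene of the crosslinking enzyme lysyl oxidase (4.04), and *Fbln2*, the gene of fibulin 2 (2.81). *Fbn1*, the gene of fibrillin-1, was at 16.9, 16.6 and 35.4 TPM. *Ltbp1* was at 81.5, 89.0 and 81.1 TPM, so of these binding partners of *Adamtsl2* the fibrillin gene was higher with TGFβ1 and the LTBP1 gene was near its untreated level. With FGF18, none of 15 was higher and 1 was lower, beside 2.67% and 6.7% of all genes. The lower gene was *Efemp1*, which encodes fibulin 3 and was also the one lower with TGFβ1. *Pofut2* and *B3glct*, whose products add the sugars on thrombospondin repeats that the secretion of ADAMTS proteins requires, were not past the limit with either stimulus, and neither was *Cfp*, the gene of properdin, a complement protein with such repeats, which the same list holds. *Vwf*, *Fbn1*, *Ltbp1*, *A2m*, *Dll1*, *Sdc1*, *Cdh5*, *Fmod*, *Vcan*, *Pofut2*, *B3glct* and *Cfp* were named after their values were seen.

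The stellate cell label was checked against 10 marker genes, all above 1 TPM in every group, with *Des* at 148, 116 and 93.0 TPM *Lrat* at 151, 61.6 and 43.9 TPM and *Colec11* at 96.2, 12.5 and 7.44 TPM. Their summed level was 2379 TPM in untreated cells, 2183 TPM with FGF18 and 1869 TPM with TGFβ1. Markers of activated stellate cells and myofibroblasts, 6 genes, summed to 3250 TPM, 1004 TPM and 5768 TPM. Of the 6, 4 were at least 2-fold higher with TGFβ1, beside 4.54% of all genes. With FGF18, 3 of the 6 were at least 2-fold lower, beside 6.7% of all genes. The 4 higher with TGFβ1 are *Timp1* and the collagen genes *Col1a1*, *Col1a2* and *Col3a1*. The contractile genes of the list were below untreated cells with both stimuli, *Acta2* at 796, 167 and 692 TPM and *Tagln* at 1408, 445 and 837 TPM. Markers of liver endothelial cells summed to 371.7, 276 and 155 TPM, with no marker at 0 in a group. Of 9 above the floor, 7 were at least 2-fold lower with TGFβ1, beside 5.14% of all genes, and none with FGF18. The others were *Pecam1*, at 103, 77.7 and 96.8 TPM, and *Stab2*, at 5.48, 7.29 and 9.08 TPM. Markers of vascular smooth muscle summed to 266, 94.2 and 103 TPM, those of macrophages to 70.2, 99.9 and 63.8 TPM and those of hepatocytes to 19.9, 19.0 and 22.3 TPM. Most of the macrophage sum is *Cd68*, at 52.1, 85.0 and 43.0 TPM, while *Ptprc* was lower with FGF18, at 13.0, 8.32 and 13.4 TPM. The macrophage markers *Adgre1*, *Clec4f* and *Marco* stayed below 1 TPM in every group. The collagen genes and *Timp1*, but not *Acta2* and *Tagln*, move with *Adamtsl2*, which is higher with TGFβ1. Of the endothelial markers above the floor, all but *Pecam1* and *Stab2* move with *Adamts1* and *Adamts13*, which were past the limit with TGFβ1 only. The endothelial gene *Vwf*, at 13.0, 9.99 and 12.4 TPM, does not. Of the 10 stellate cell markers, 6 were also below untreated cells with TGFβ1 and 4 above. *Lrat* and *Colec11* were at least 2-fold lower with either stimulus, 2 of 10 beside 6.7% and 5.14% of all genes. *Adamts5* and *Adam3* were past the limit with FGF18 too, where no endothelial marker was. The vascular smooth muscle sum moves with these members, lower with either stimulus, but most of it is *Mustn1*, at 230, 82.7 and 85.6 TPM. Of its 4 markers, 3 were at least 2-fold lower with FGF18 and 2 with TGFβ1, beside 6.7% and 5.14% of all genes. *Cnn1* was higher with TGFβ1, at 2.10, 1.34 and 4.97 TPM. The part of these cell types in the results was not tested.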

How the data were processed

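Bulk RNA of hepatic stellate cells was read in 3 groups, untreated, FGF18 and TGFβ1. The labels list 1 record per group, while the methods state triplicates. SMART-Seq cDNA was sequenced paired-end, and reads were mapped to GRCm38 (mm10) and compared on the RaNA-seq platform. The sources used here name no aligner, counter or strand setting. Reads of overlapping genes therefore cannot be told apart.

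The TPM values are, as deposited by the authors, group means, 1 table per stimulus, with 31447 and 31691 rows whose columns sum to between 999985 and 999995. The columns are named only A and B. A was read as untreated, because its values are equal in both tables for all 30595 symbols that occur once in each. The tables also hold the authors' own fold changes, statistics with standard errors and p-values, which were not used. Depth per library, and with it precision, is unknown.

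Ratios are log2 of the group means after adding 1 TPM, for genes with at least 1 TPM in either group, and the limit is 2-fold. No test was run, since the files hold no values per library. Functional subgroups, related gene lists and markers were chosen with earlier results of these data known. The text names every member that reaches 1 TPM in a group, and of each related list up to 4 genes that reach 10 TPM and pass 2-fold. The ratio step was tested on simulated data. Positions and shared words of 31 bases come from GENCODE M21, promoters from RefSeq on GRCm38.p6. The zinc site of the proteins was not analysed here. Alternatives were other pseudocounts, floors and folds, centring, and protein-coding genes only. Python 3.11.15, numpy 2.4.6, pandas 2.3.3 and matplotlib 3.10.9 were used.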

Additional observations from a re-analysis of the deposited data

How the results depend on the processing

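The counts of members past 2-fold were 1 higher and 3 lower with FGF18, 1 and 4 with TGFβ1, and 0 and 3 for FGF18 against TGFβ1. Centring and no floor left these counts within 1.5 times, and no member past 2-fold changed direction under an alternative run on it. Centring turned the sign of 2 ratios near 0, *Adam1a* with FGF18 (0.03 to −0.02) and *Adam33* with TGFβ1 (0.01 to −0.02). Rescaling to protein-coding genes was run only on the members reaching a level, with 43, 41 and 41 at 1 TPM and 13, 13 and 16 at 10 TPM in untreated, FGF18 and TGFβ1 cells. With a pseudocount of 0.1 or none, 6 were lower with FGF18, which adds *Adam34*, *Adamts16* and *Adamts20*, genes near 1 TPM. For FGF18 against TGFβ1 the same settings gave 2 and 3 higher (*Adamts3*, *Adamts13* and, without a pseudocount, *Adam1a*) and 6 lower each. With a floor of 10 TPM, FGF18 kept 0 higher and 0 lower, TGFβ1 had 2 lower (*Adamts1*, *Adamts13*), and 1 was lower between the stimuli (*Adamtsl2*). At 1.5-fold, 9 were lower with FGF18, 6 higher and 7 lower with TGFβ1, and 4 higher and 8 lower between the stimuli. At 3-fold, 0 were past the limit with FGF18 in either direction, 0 were lower with TGFβ1, and 1 was lower between the stimuli. The call of *Adamtsl2* as higher with TGFβ1 held under each pseudocount, floor, fold and centring tried, while all 4 calls with FGF18 were lost at 10 TPM and at 3-fold. Why these counts differ beyond the settings' own construction was not tested.

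No paired analysis was possible because the files hold 1 mean per group. Leaving out a library and a replicate block were not run for the same reason.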
